A study of Mus musculus with 11 samples.

Results

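The genes described here encode the matrix metalloproteinases (MMPs), the ADAMTS proteinases, the ADAMTS-like proteins and the tissue inhibitors of metalloproteinases (TIMPs) of the mouse. They were chosen by symbol alone, taking every annotated Mmp gene with a number, every numbered Adamts and Adamtsl gene, and Timp1 to Timp4, which gave 51 of the 53465 genes in the count tables. Of these, 23 are Mmp genes, 19 Adamts, 5 Adamtsl and 4 Timp. RNA was sequenced from mPFC CRF1+ neurons, the cells of the medial prefrontal cortex that express the corticotropin releasing factor receptor CRF1, to ask how their transcriptome differs in withdrawal from chronic ethanol. All mice were male CRF1:GFP reporter mice of at least 10 weeks, in which green fluorescent protein marks the CRF1-expressing cells, and each library holds the sorted cells of 1 mouse. The 5 withdrawn mice, labelled ethanol, had 5 to 6 weeks of intermittent ethanol vapor with ethanol and pyrazole injections and were 5 to 8 days into abstinence. The 6 naïve mice, labelled control, breathed air and also received pyrazole, so that this inhibitor of alcohol dehydrogenase is common to both groups.

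For withdrawn mice 3, 4 and 5 the source label reads control while title and treatment read ethanol, and the design text deposited with the data has the sizes of the groups reversed. Mice were grouped by title and treatment, and the counts below and the values of the genes called by DESeq2 are also given without these 3 mice, which leaves withdrawn mice 1 and 2. Gates for fluorescence and live nucleated cells defined the sort, and 160 pg of RNA per mouse was amplified into cDNA. In such sorted bulk samples, fewer cells of a type and less RNA per cell cannot be told apart.

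MMPs are zinc-dependent endopeptidases that cleave collagens, proteoglycans and other matrix and surface proteins, and most are secreted or membrane-bound as inactive proenzymes. ADAMTS proteinases are secreted and carry thrombospondin repeats, with procollagen and proteoglycans such as aggrecan and versican among their substrates, whereas the ADAMTS-like proteins share the ancillary domains but lack the protease domain. TIMPs bind the active site of these enzymes, and in the cortex the balance of proteinase and inhibitor shapes the perineuronal and perisynaptic matrix.

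The families differ in the site that binds the catalytic zinc. A pattern of 33 bases with codons for 3 histidines and 1 glutamate at fixed spacing (codons 1, 2, 5 and 11) was searched in the longest coding sequence of each gene (GENCODE M21, GRCm38). It was present in 22 of 23 Mmp genes, with Mmp1a, annotated as a polymorphic pseudogene, as the exception, and in 19 of 19 Adamts genes, but in 0 of 5 Adamtsl and 0 of 4 Timp genes. Codon 8 encodes glycine in these 22 Mmp and in 13 Adamts genes and asparagine in 5 others, Adamts1, Adamts4, Adamts9, Adamts15 and Adamts20. In Adamts8 codon 8 encodes neither of these. The sites of some of the proteinase genes described in the results, Adamts8 not among them, are shown with the histidine and glutamate codons in capitals. For sites split by an intron the coordinates span that intron.
Mmp14, chr14:54437627-54437659, plus strand, exon 5: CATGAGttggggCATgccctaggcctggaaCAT
Mmp17, chr5:129596597-129596629, plus strand, exon 5: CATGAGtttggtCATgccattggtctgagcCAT
Mmp16, chr4:18051748-18051780, plus strand, exon 5: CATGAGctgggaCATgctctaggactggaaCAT
Mmp24, chr2:155807427-155807459, plus strand, exon 5: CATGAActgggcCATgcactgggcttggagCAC
Mmp19, chr10:128795673-128795705, plus strand, exon 5: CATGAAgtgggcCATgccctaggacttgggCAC
Adamts2, chr11:50775403-50776134, plus strand, exons 7 and 8: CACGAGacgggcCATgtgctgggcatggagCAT
Adamts1, chr16:85799191-85799545, minus strand, exons 3 and 4: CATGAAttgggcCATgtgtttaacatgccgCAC
Adamts9, chr6:92905285-92908493, minus strand, exons 8 and 9: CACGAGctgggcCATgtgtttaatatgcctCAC
Adamts10, chr17:33538157-33538279, plus strand, exons 9 and 10: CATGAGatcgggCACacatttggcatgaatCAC
Adamts20, chr15:94353678-94355296, minus strand, exons 8 and 9: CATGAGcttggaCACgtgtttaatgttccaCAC
In the Mmp genes listed the site lies within 1 exon, whereas in the Adamts genes listed an intron divides it.

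Transcripts of the sorted cell type were present in every mouse. Crhr1, which encodes CRF1, was read at 69.1 to 119 CPM (normalised counts scaled to a common library size) in naïve and 42.2 to 136 CPM in withdrawn mice. A list of 7 glutamatergic neuron markers summed to 7404 to 9788 CPM in naïve and 4644 to 7762 CPM in withdrawn mice. This list includes Snap25 and Rbfox3, which mark neurons in general, and Snap25 alone averaged 5659 and 4260 CPM. The sums of 7 GABAergic neuron markers were 76.3 to 932 CPM in naïve and 30.4 to 729 CPM in withdrawn mice. Each mouse had between 7351567 and 22244869 counts on genes, so that 3 counts, the limit a count of 0 allows, correspond to 0.135 to 0.408 CPM, counting error only. Genes with at least 1 count ranged from 15585 in naïve mouse 5 to 31830 in withdrawn mouse 4. The share of reads outside exons ranged from 5.77% to 48.1% in the same mice. Naïve mouse 5 and withdrawn mouse 2 stood apart for several of the genes below. Fibroblast markers, a list of 10 genes (Col1a1, Col1a2, Col3a1, Dcn, Lum, Ogn, Pdgfra, Slc6a13, Igf2 and Dpt), summed to 0.0677 to 80.3 CPM in naïve mice and to 1323, 18.4, 678, 945 and 233 CPM in withdrawn mice 1 to 5. Because this sum moved with several metalloproteinase genes among the withdrawn mice, it is set beside them below.

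The members ranged from abundant transcripts, led by Timp2 and Mmp17, to genes without a count in most mice. A gene was tested if it passed the low-count filter of edgeR, which 36 members did (10 Mmp, 18 Adamts, 4 Adamtsl and 4 Timp). The other 15 had 1 to 178 counts in all mice together and at most 10.4 CPM in any mouse. Only 10 members had at least 10 counts in every mouse, and 15 had at least 1. Of the 36 tested, 7 reached the filter level in fewer than 3 naïve mice, namely Adamts12, Mmp2, Mmp11, Mmp14, Mmp19, Mmp23 and Timp1. These passed mainly through withdrawn mice, although only Mmp2 reached that level in all 5 of them.

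Timp2 had the highest level per length in the set, at 126 CPM per kb of exon over all mice, followed by Mmp17 at 35.2. Timp3 (6.86), Timp1 (6.36), Mmp16 (5.11), Adamts2 (4.58), Adamtsl3 (4.33) and Adamts10 (3.09 CPM per kb) came next. Of the summed level per kb of all 51 genes, Timp2 made up 60.0% ± 3.64 (SD, n = 6) in naïve and 54.1% ± 4.63 (n = 5) in withdrawn mice. The order differed between the groups, since Timp1, Adamts2 and Adamtsl3 stood at 0.629, 0.375 and 0.153 CPM per kb in naïve mice and at 13.2, 9.63 and 9.34 in withdrawn mice.

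**Figure D1:**
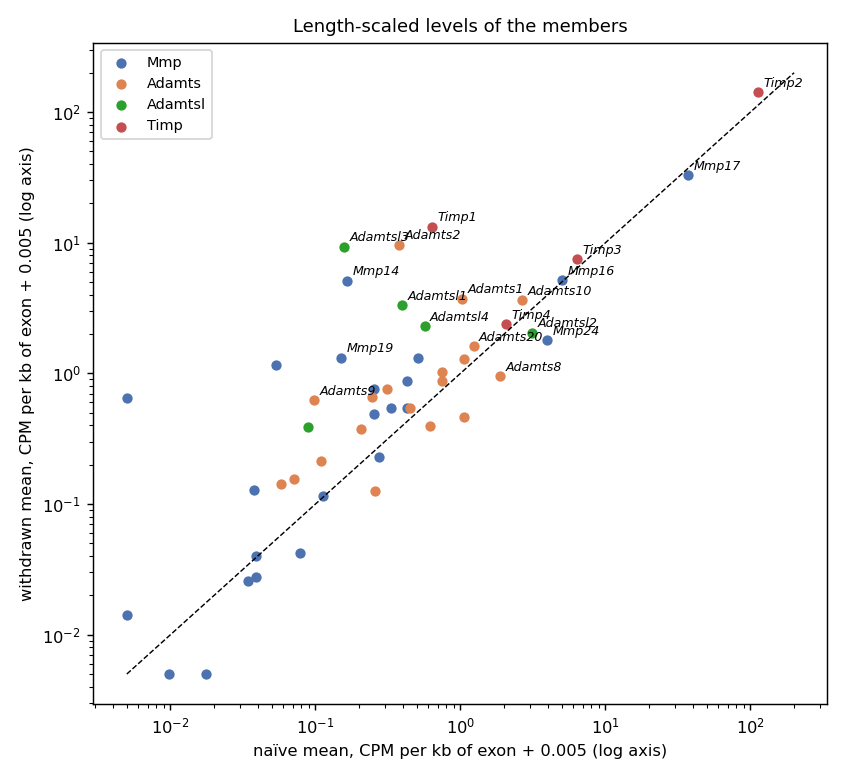
Mean level of each of the 51 genes in naïve mice (horizontal axis) and withdrawn mice (vertical axis), in CPM per kb of exon with 0.005 added, both on log axes, with the 19 genes described by name labelled and the dashed line marking equal levels. Timp2 and Mmp17 lie near the line at the top, while Adamtsl3, Adamts2, Mmp14 and Timp1 lie well above it.

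**Figure D2:**
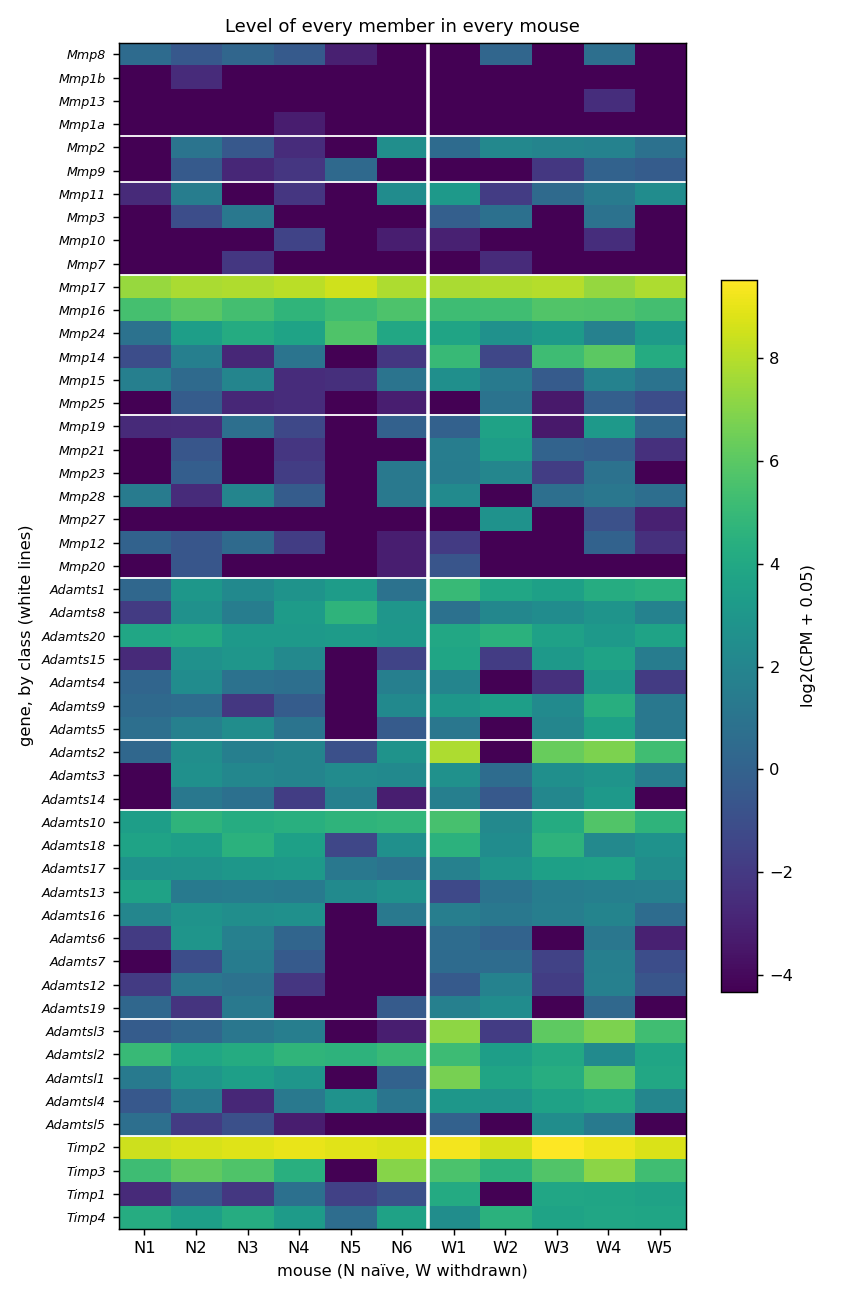
Level of every member in every mouse as log2(CPM + 0.05), with genes in rows grouped by class and mice N1 to N6 (naïve) and W1 to W5 (withdrawn) in columns. The rows of Timp2 and Mmp17 are bright in all mice, and the rows of Adamts2, Adamtsl3, Mmp14 and Timp1 are bright in W1, W3, W4 and W5 only.

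Withdrawn mice were compared with naïve mice across all tested genes with the quasi-likelihood test of edgeR, and a gene was called at a Benjamini-Hochberg adjusted p of at most 0.05 with a log2 fold change beyond 0.6. No member was called, against 1 of 17093 genes overall (0.00585%), and the smallest adjusted p among the members was 0.0931, for Adamtsl3. At an unadjusted p under 0.05 there were 9 of 36 members, all higher in withdrawn mice, beside 7.22% of all tested genes in either direction, 5% higher and 2.22% lower. The log2 fold change was above 0 for 29 of 36 members (80.6%, against 51.8% of all genes), with a median of 0.59 against 0.02 over all genes. All 7 members that passed mainly through withdrawn mice were above 0, a direction that the filter favours. Among genes that reached the filter level in at least 3 naïve mice, a restriction chosen after seeing the data, 22 of 29 members were above 0 (49.3% of all such genes) and 6 had a p under 0.05 (6.66%). Without withdrawn mouse 2, 31 of 40 members were above 0 (50.1% of all genes in that fit) and 9 had a p under 0.05 (7.24%). Without naïve mouse 5 these counts were 27 of 36 (50.8%) and 9 (7.71%), and without the 3 mice with conflicting labels 28 of 44 (50.4%) and 8 (6.27%).

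DESeq2, the tool the study used, called 6 members among those with a p-value (50 of 51), all higher in withdrawn mice. Of all 40831 genes with a p-value, 342 were called higher (0.838%) and 20 lower (0.049%). Only 21849 of these genes had an adjusted p and could be called, so both shares are larger among those. All members but Mmp1a, Mmp1b, Mmp7, Mmp10, Mmp13, Mmp20 and Mmp27 had an adjusted p. At an unadjusted p under 0.05 DESeq2 had 10 of the 50 members with a p-value, beside 6.24% of all genes. The members called were Adamts1, Adamts2, Adamtsl1, Adamtsl3, Mmp14 and Timp1. Adamts2, Adamtsl3, Mmp14 and Timp1 were called in each of the 11 DESeq2 fits that left out 1 mouse. Adamts1 was not called without naïve mouse 3 or 6, or without withdrawn mouse 1, 4 or 5. Adamtsl1 was not called without naïve mouse 1, 4 or 6, or without withdrawn mouse 1, 3 or 4. The 11 fits called 150 to 540 genes in all. When withdrawn mouse 2 was left out, edgeR called Adamts2, Adamtsl3, Mmp14 and Timp1, 4 of 40 tested members, beside 193 of all 18170 tested genes. This mouse was the lowest withdrawn mouse for each of these 4 genes, so leaving it out favours their calls. With any other single mouse left out, edgeR called no member. Without the 3 mice with conflicting labels DESeq2 called 0 members and 168 genes in all, and these 3 mice are among the 4 withdrawn mice in which Adamts2, Adamtsl3, Mmp14 and Timp1 were high.

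**Figure D3:**
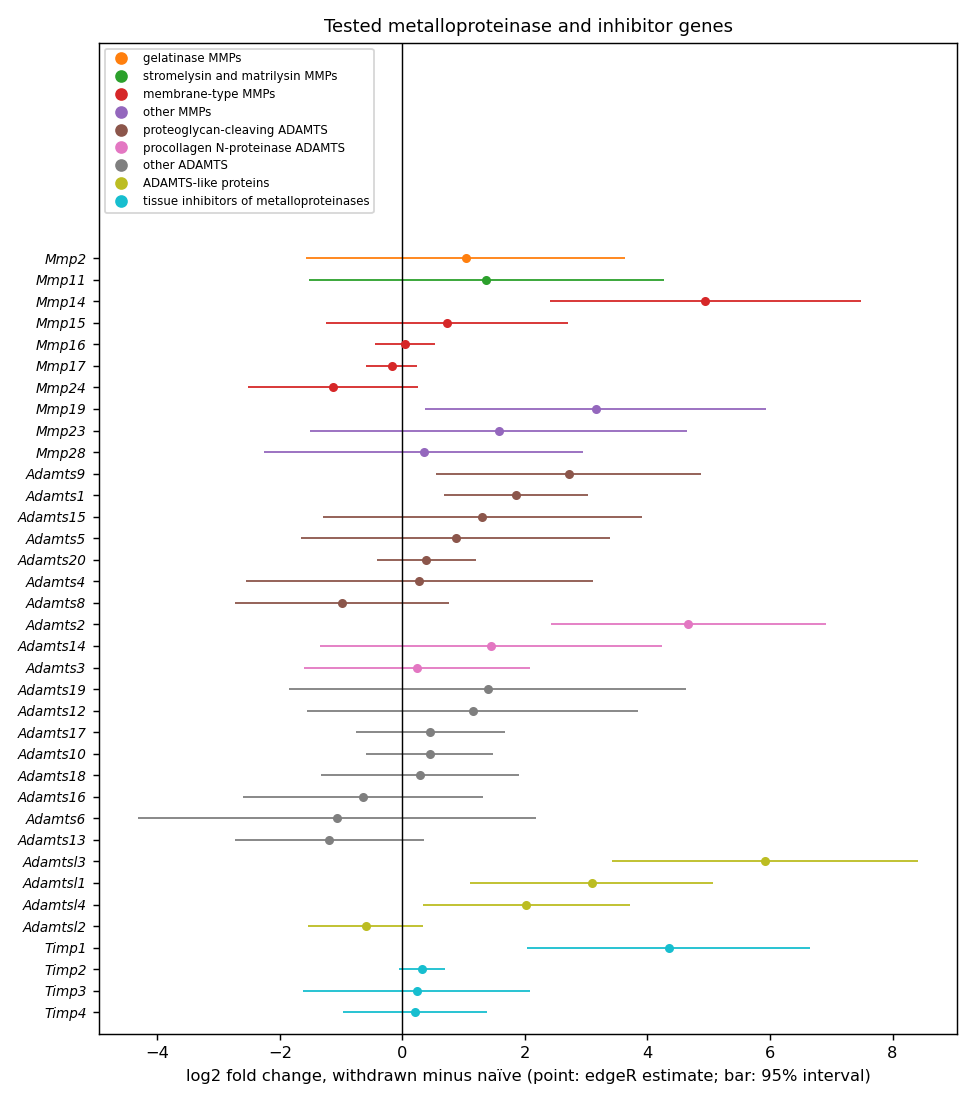
Log2 fold change of the 36 tested members, withdrawn minus naïve, as edgeR estimates (points) with 95% intervals (bars), coloured by class. The intervals of 9 genes lie wholly above 0, from Adamtsl3 at 5.92 to Adamts1 at 1.85, and no interval lies wholly below 0.

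Among the inhibitors, Timp1 differed most between the groups while Timp2, Timp3 and Timp4 had intervals that included 0. Timp1 (ENSMUSG00000001131, chrX:20870166-20874735) is a secreted inhibitor known to be induced in reactive and fibroblastic cells. It stood at 0.107, 0.382 and 1.69 CPM (lowest, median and highest) in naïve mice and at 17.5, 0, 14.4, 14.1 and 12.7 CPM in withdrawn mice 1 to 5. Thus 4 withdrawn mice lay far above every naïve mouse and withdrawn mouse 2 had no count. For Timp1 the log2 fold change was 4.35 ± 1.08 (SE), with an adjusted p of 0.194 by edgeR and 0.000684 by DESeq2. Without withdrawn mouse 2 it was 4.65, with an edgeR adjusted p of 0.00834, and without the 3 mice with conflicting labels 3.91 with an adjusted p of 0.789. Leaving out 1 mouse other than withdrawn mouse 2 gave Timp1 an edgeR adjusted p of up to 0.543.

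Timp2 (ENSMUSG00000017466, chr11:118301069-118355740), which both inhibits MMPs and takes part in the activation of pro-MMP2 by Mmp14, stood at 354, 439 and 541 CPM in naïve mice. In withdrawn mice it stood at 622, 393, 734, 579 and 433 CPM. The groups overlapped, with 3 withdrawn mice above the naïve range, and the log2 fold change was 0.32 with a 95% interval from -0.06 to 0.70 (edgeR adjusted p = 0.776). Of the summed Timp level per kb, Timp2 made up 92.5% ± 4.81 in naïve (n = 6) and 86.4% ± 4.86 in withdrawn mice (n = 5), and Timp1 0.480% ± 0.444 and 7.53% ± 4.42.

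Timp3 (chr10:86300372-86349506), the inhibitor that binds to the matrix, was at 0, 45.0 and 128 CPM in naïve mice and at 49.3, 23.7, 54.7, 138 and 38.3 CPM in withdrawn mice. The groups overlapped, with naïve mouse 5 lowest and withdrawn mouse 4 highest, and its log2 fold change was 0.23 (95% interval -1.62 to 2.09). In naïve mouse 5 the 8 endothelial and 8 mural cell markers summed to 0.271 and 0.203 CPM, the lowest of all mice, and their part in the value of Timp3 was not tested. Timp4 was at 1.49, 11.9 and 19.1 CPM in naïve and at 5.40, 23.3, 12.8, 14.6 and 14.0 CPM in withdrawn mice. These ranges also overlapped, with a log2 fold change of 0.21 (95% interval -0.97 to 1.39).

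Timp1, Timp3 and Timp4 lie inside the genes of the synaptic vesicle proteins Syn1, Syn3 and Syn2. Timp1 shares no exonic base with Syn1, while Timp3 shares 1733 with genes on the opposite strand and Timp4 90. Whether counting used strand is not given in the sources used here, and reads from such shared bases cannot be assigned to a strand. Syn1 stood at a mean of 1122 CPM in naïve and 1096 CPM in withdrawn mice (log2 fold change -0.03), Syn2 had a log2 fold change of -0.26 and Syn3 of 0.15, none called.

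The 6 membrane-type MMPs, which act at the cell surface, included both the most abundant proteinase gene and, among the 10 tested Mmp genes, the one with the largest fold change. Mmp14 (ENSMUSG00000000957, chr14:54431612-54445364) encodes the collagenolytic MT1-MMP. It was at 0, 0.307 and 3.13 CPM in naïve mice and at 31.8, 0.336, 37.0, 65.7 and 18.0 CPM in withdrawn mice. Withdrawn mice 1, 3, 4 and 5 lay above the naïve range and withdrawn mouse 2 lay within it. Its log2 fold change was 4.94 ± 1.2 (SE), with an adjusted p of 0.167 by edgeR and 0.000736 by DESeq2, and without withdrawn mouse 2 it was 5.24 with an edgeR adjusted p of 0.0203. Leaving out 1 mouse other than withdrawn mouse 2 gave Mmp14 an edgeR adjusted p of up to 0.524. Without the 3 mice with conflicting labels its log2 fold change was 4.01 with an edgeR adjusted p of 0.789.

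Mmp17 (ENSMUSG00000029436, chr5:129584169-129611099), a membrane MMP attached by a glycolipid anchor and known in neurons, stood at 165, 231 and 363 CPM in naïve mice. It stood at 217, 237, 248, 158 and 227 CPM in withdrawn mice. All but withdrawn mouse 4 lay inside the naïve range, and the log2 fold change of -0.18 had a 95% interval from -0.59 to 0.24. Mmp17 made up 75.3% ± 5.73 of the summed Mmp level per kb in naïve and 61.9% ± 9.56 in withdrawn mice.

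Mmp16, a further transmembrane MMP, was at 26.9, 43.2 and 62.2 CPM in naïve and at 37.0, 38.7, 54.0, 53.0 and 42.0 CPM in withdrawn mice. The withdrawn values lay wholly within the naïve range, and the 95% interval of the log2 fold change ran from -0.46 to 0.53. Mmp24, known for its expression in the nervous system, was at 1.83, 14.2 and 51.3 CPM in naïve and at 13.4, 6.38, 9.44, 3.32 and 9.34 CPM in withdrawn mice. Its log2 fold change of -1.13 had an interval from -2.52 to 0.25 and was -0.49 without naïve mouse 5, which carried the highest value. Mmp24 shares 637 exonic bases with a gene on the opposite strand.

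The remaining Mmp genes were low. Mmp19, a widely expressed secreted MMP, was at 0, 0.230 and 1.59 CPM in naïve mice and at 0.936, 12.5, 0.0467, 8.48 and 1.20 CPM in withdrawn mice. Withdrawn mice 2 and 4 were far above the naïve range and the others lay within it. The log2 fold change was 3.15 ± 1.29 (SE, edgeR adjusted p = 0.607), and without withdrawn mouse 2 it was 2.33 with an adjusted p of 0.826. Mmp19 shares 1001 exonic bases with opposite-strand genes. Mmp2, the gelatinase of fibroblasts, reached 5.74 CPM in naïve and 4.37 CPM in withdrawn mice at most, with a log2 fold change of 1.03 (95% interval -1.57 to 3.64). Mmp9, the gelatinase best known in synaptic plasticity, did not pass the filter and stood at a mean of 0.378 CPM in naïve and 0.390 CPM in withdrawn mice.

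A group of 10 Mmp genes lies side by side on chromosome 9 (chr9:7272514-7699585), among them the collagenases, stromelysins and matrilysin. None of these 10 was tested, with 144 counts in all naïve mice together, 154 in all withdrawn mice, and 0 to 85 per mouse. The highest single count was 59, of Mmp27 in withdrawn mouse 2 (6.60 CPM). Mmp27 had no count in any naïve mouse. DESeq2 gave a p for 9 of the 10, and none for Mmp27. Of these 9 only Mmp3, Mmp8 and Mmp12 also had an adjusted p (0.932, 0.983 and 0.896), and none of them was called. The others had no adjusted p and could not be called.

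Of the procollagen N-proteinases, which trim the amino-terminal propeptide of fibrillar procollagens, Adamts2 was higher in 4 of 5 withdrawn mice while Adamts3 and Adamts14 overlapped. Adamts2 (ENSMUSG00000036545, chr11:50602084-50807573) was at 0.474, 3.44 and 6.79 CPM in naïve mice and at 223, 0, 78.5, 109 and 39.3 CPM in withdrawn mice. The lowest of withdrawn mice 1, 3, 4 and 5 lay above the highest naïve mouse, and withdrawn mouse 2 had no count. For Adamts2 the log2 fold change was 4.67 ± 1.05 (SE), with an adjusted p of 0.134 by edgeR and 0.000598 by DESeq2, and without withdrawn mouse 2 it was 4.96 with an edgeR adjusted p of 0.00360. Leaving out 1 mouse other than withdrawn mouse 2 gave Adamts2 an edgeR adjusted p of up to 0.482. Without the 3 mice with conflicting labels its log2 fold change was also 4.96, with an edgeR adjusted p of 0.647. Adamts2 made up 2.87% ± 2.07 of the summed Adamts level per kb in naïve and 28.5% ± 18.8 in withdrawn mice. The log2 fold changes of Adamts3 and Adamts14 were 0.24 (95% interval -1.60 to 2.08) and 1.44 (-1.35 to 4.24).

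All 7 proteoglycan-cleaving Adamts genes were tested, 6 of them with a log2 fold change above 0 and 2 at an unadjusted p under 0.05. Adamts1 (ENSMUSG00000022893, chr16:85793827-85803113), an aggrecan- and versican-cleaving enzyme, was at 1.2, 5.83 and 10.2 CPM in naïve mice and at 31.8, 14.3, 11.6, 19.1 and 22.1 CPM in withdrawn mice. Every withdrawn mouse, mouse 2 included, lay above every naïve mouse. Adamts1 and Adamtsl1 were the 2 tested members whose groups did not overlap in that direction, beside 0.69% of all tested genes, and no tested member lay wholly below (0.257% of all). For Adamts1 the log2 fold change was 1.85 ± 0.55 (SE), with an adjusted p of 0.311 by edgeR and 0.0304 by DESeq2, and without the 3 mice with conflicting labels it was 2.04 (edgeR adjusted p = 0.789).

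Adamts9, which cleaves versican, was at 0, 1.02 and 4.75 CPM in naïve and at 7.92, 11.0, 4.95, 20.4 and 2.26 CPM in withdrawn mice. Only withdrawn mouse 5 lay within the naïve range, and the log2 fold change was 2.71 ± 1.0 (SE, edgeR adjusted p = 0.500). Without naïve mouse 6 it was 3.65, and without withdrawn mouse 4 it was 2.21 with an unadjusted edgeR p of 0.0601. It shares 1805 exonic bases with opposite-strand genes. Adamts8 was at 0.215, 6.95 and 25.1 CPM in naïve mice and at 1.73, 4.25, 5.28, 7.13 and 3.47 CPM in withdrawn mice. All withdrawn values lay within the naïve range, and the log2 fold change of -0.99 (95% interval -2.74 to 0.76) was -0.28 without naïve mouse 5. Adamts20 was at 8.03, 9.05 and 16.9 CPM in naïve and at 16.0, 22.6, 11.9, 8.98 and 13.1 CPM in withdrawn mice, with 1 withdrawn mouse above the naïve range and a log2 fold change of 0.39 (95% interval -0.42 to 1.20).

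Of the 9 other Adamts genes 8 were tested, 5 with a log2 fold change above 0 and none at an unadjusted p under 0.05. Adamts10, which binds fibrillin microfibrils, was the highest of them per length. It was at 11.0, 23.6 and 28.0 CPM in naïve and at 45.5, 4.48, 18.5, 55.0 and 25.8 CPM in withdrawn mice. Withdrawn mice 1 and 4 lay above the naïve range and withdrawn mouse 2 below it. The log2 fold change was 0.45 (95% interval -0.59 to 1.48). The other 7 tested genes of this class had log2 fold changes from -1.19 (Adamts13) to 1.39 (Adamts19).

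The ADAMTS-like genes, which encode matrix proteins without a protease domain, gave 3 of 4 tested genes at an unadjusted p under 0.05, all higher. Adamtsl3 (ENSMUSG00000070469, chr7:82335694-82614450) was at 0, 0.952 and 2.97 CPM in naïve mice and at 144, 0.224, 67.5, 111 and 38.9 CPM in withdrawn mice. Again withdrawn mice 1, 3, 4 and 5 stood above all naïve mice and withdrawn mouse 2 stood among them. Adamtsl3 had the largest log2 fold change of the 36 tested members, 5.92 ± 1.16 (SE), with an adjusted p of 0.0931 by edgeR and 0.000544 by DESeq2, and without withdrawn mouse 2 it was 6.23 with an edgeR adjusted p of 0.00370. Leaving out 1 mouse other than withdrawn mouse 2 gave Adamtsl3 an edgeR adjusted p of up to 0.343. Without the 3 mice with conflicting labels its log2 fold change was 5.90 with an edgeR adjusted p of 0.647.

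Adamtsl1 (ENSMUSG00000066113, chr4:85514172-86428385) was at 0, 5.02 and 11.1 CPM in naïve and at 103, 13.4, 19.9, 59.8 and 15.6 CPM in withdrawn mice. The groups did not overlap, although the lowest withdrawn mouse was close to the highest naïve mouse. Its log2 fold change was 3.09 ± 0.92 (SE), with an adjusted p of 0.319 by edgeR and 0.0381 by DESeq2, and without the 3 mice with conflicting labels it was 3.53 (edgeR adjusted p = 0.691). Adamtsl4, a fibrillin-binding protein, was at 0.0937, 2.21 and 6.57 CPM in naïve and at 8.00, 7.39, 12.6, 16.2 and 4.03 CPM in withdrawn mice. Only withdrawn mouse 5 overlapped the naïve range, and the log2 fold change was 2.02 ± 0.79 (SE, edgeR adjusted p = 0.546).

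Adamtsl2, which binds the latent TGF-beta complex, was at 14.4, 25.4 and 33.3 CPM in naïve and at 35.6, 10.7, 16.5, 4.92 and 14.1 CPM in withdrawn mice. Withdrawn mice 2, 4 and 5 lay below the naïve range and withdrawn mouse 1 above it. The log2 fold change was -0.60 (95% interval -1.54 to 0.34), and without withdrawn mouse 1 it was -1.11 with an unadjusted edgeR p of 0.0195 (adjusted p = 0.860). Adamtsl2 was the leading ADAMTS-like gene in naïve mice, with 71.1% ± 12.1 of the summed level per kb of these genes, and made up 16.1% ± 10.9 in withdrawn mice, where Adamtsl3 made up 45.0% ± 24.9 after 3.77% ± 3.59 in naïve mice.

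**Figure D4:**
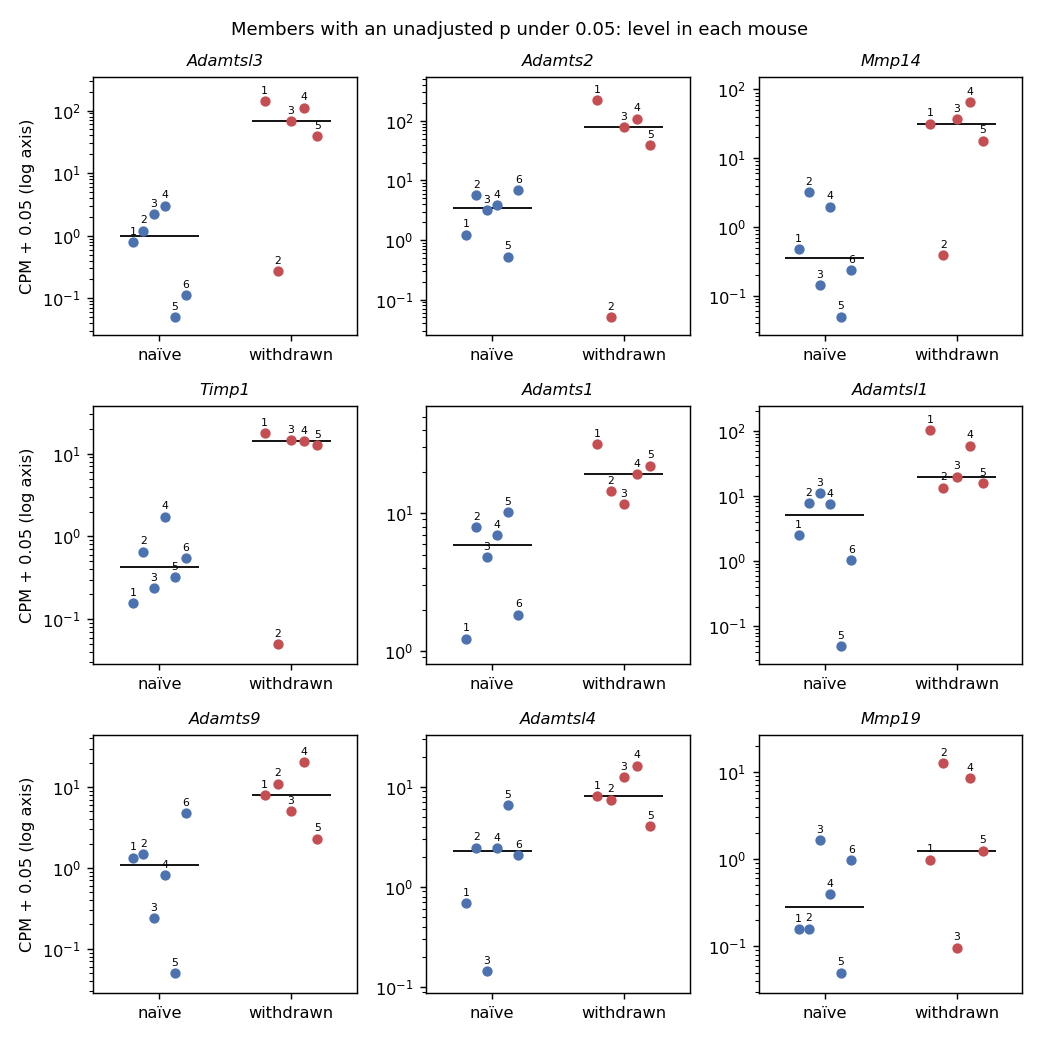
Level of the 9 members with an unadjusted p under 0.05 in each mouse, in CPM with 0.05 added on a log axis, with points numbered by mouse and horizontal bars at group medians. Withdrawn mouse 2 lies among or below the naïve mice for Adamtsl3, Adamts2, Mmp14 and Timp1, and above them for Adamts1, Adamtsl1, Adamts9, Adamtsl4 and Mmp19.

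Withdrawn mouse 2 did not have low values throughout. Of the 51 members, 9 had their highest level of all mice in this mouse, among them Mmp19, Mmp21, Mmp27, Adamts20 and Timp4. The number was 10 in withdrawn mouse 1, 3 in withdrawn mouse 3, 13 in withdrawn mouse 4 and 1 to 5 in each naïve mouse. Withdrawn mice 2 and 4 also had the fewest counts on genes, 8696939 and 7351567. Some of the 9 rested on few counts, such as 17 for Mmp25 and 31 for Adamts12. The same share over all genes is not given. Mmp21, which did not pass the filter, was at 10.4 CPM in withdrawn mouse 2 and at 0 to 0.604 CPM in naïve mice.

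Among the withdrawn mice, fibroblast markers moved with the 4 genes that were low in withdrawn mouse 2. Withdrawn mice 1, 4, 3, 5 and 2, in this order from high to low, had fibroblast sums of 1323, 945, 678, 233 and 18.4 CPM, and Adamts2, Adamtsl3 and Adamtsl1 had the same order. Mmp14 (mice 4, 3, 1, 5 and 2) and Timp1 (mice 1, 3, 4, 5 and 2) did not, although both were also lowest in mouse 2, and Adamtsl1 was lowest there while still above the naïve range. In naïve mice none of these genes followed the order of the sum throughout. The highest naïve fibroblast sum, 80.3 CPM, was in naïve mouse 3, where Mmp14 stood at 0.0937 CPM and Timp1 at 0.187 CPM. Adamtsl1 was also highest among naïve mice in naïve mouse 3, at 11.1 CPM. Adamtsl3 was highest in naïve mouse 4, at 2.97 CPM, where the sum was 53.3 CPM. Adamts2 was highest in naïve mouse 6, at 6.79 CPM, where the sum was 22.4 CPM. In naïve mouse 5, which had the lowest sum, Adamtsl1, Adamtsl3 and Mmp14 had no count. Adamts2 stood at 0.474 CPM and Timp1 at 0.271 CPM in that mouse. Of the 10 fibroblast markers 7 were tested, all 7 had a log2 fold change above 0, 5 had an unadjusted p under 0.05, and 3 were called by DESeq2. Ogn had a log2 fold change of 5.36 (edgeR adjusted p = 0.156) and Dcn of 3.20 (0.265). Lum, Igf2 and Dpt, which also mark fibroblasts, did not pass the filter. Lum averaged 1.36 CPM in naïve and 0.910 CPM in withdrawn mice, Igf2 0.468 and 0.0916 CPM, and Dpt 0.146 and 0.497 CPM. In withdrawn mice the number of the 10 markers without a count was 0, 4, 3, 0 and 3 in mice 1 to 5. In naïve mice 0 to 9 were without a count, with 9 in naïve mouse 5. Among the withdrawn mice, the sums of microglia and astrocyte markers were also lowest in mouse 2. The sum of 7 microglia markers was 40.6, 8.28, 37.8, 45.1 and 26.7 CPM in withdrawn mice 1 to 5 and at most 25.5 CPM in naïve mice, and that of 6 astrocyte markers was 353, 22.7, 236, 381 and 148 CPM and at most 176 CPM. For 8 mural cell markers the sums were 0.203 to 167 CPM in naïve and 13.7 to 240.5 CPM in withdrawn mice. The part of fibroblast, microglia and astrocyte transcripts in the values of Adamts2, Adamtsl3, Mmp14, Timp1 and Adamtsl1 was not tested.

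**Figure D5:**
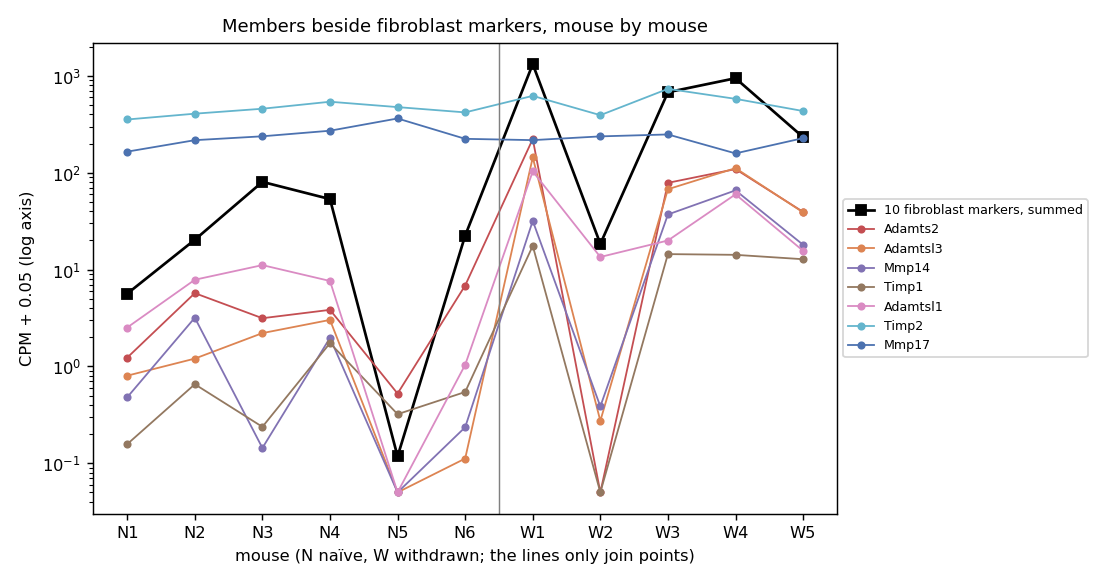
CPM with 0.05 added (log axis) of 7 members and the sum of the 10 fibroblast markers (black squares) in each naïve (N1 to N6) and withdrawn (W1 to W5) mouse, with lines that only join points. The sum and Adamts2, Adamtsl3, Mmp14 and Timp1 are high in W1, W3, W4 and W5 and low in W2, while Timp2 stays between 354 and 734 CPM and Mmp17 between 158 and 363 CPM.

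The sequence before the transcript start was compared for members with a RefSeq window (GRCm38.p6), of which 36 had at least 1 and together 39. In the 250 bases upstream, both strands were searched for the letters TGAGTCA (AP-1), GGGCGG (GC box), CCAAT and TATAAA. AP-1 letters were present in 7 of 39 windows (17.9%, against 4.46% of all 32851 windows), all 7 from the untested genes of chromosome 9. GC box letters were present in 51.3% of the members' windows (32.7% of all), CCAAT in 20.5% (33.8%) and TATAAA in 25.6% (12.4%). The windows of 5 of the 6 genes called by DESeq2, those for which one was found, are shown with that of Mmp13 from the chromosome 9 cluster, with capitals for the letters of any of these motifs.
Timp1, chrX:20869916-20870165, plus strand: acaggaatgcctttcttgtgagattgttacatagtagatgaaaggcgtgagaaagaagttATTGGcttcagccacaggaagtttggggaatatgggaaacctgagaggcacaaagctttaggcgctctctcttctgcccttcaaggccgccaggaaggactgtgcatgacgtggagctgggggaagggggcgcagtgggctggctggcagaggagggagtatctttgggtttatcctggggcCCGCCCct
Mmp14, chr14:54431348-54431597, plus strand: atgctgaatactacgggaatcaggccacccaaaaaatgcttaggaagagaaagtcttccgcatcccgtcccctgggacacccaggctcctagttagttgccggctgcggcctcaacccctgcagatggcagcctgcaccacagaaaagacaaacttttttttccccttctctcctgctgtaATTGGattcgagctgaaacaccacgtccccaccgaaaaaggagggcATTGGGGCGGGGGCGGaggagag
Adamts2, chr11:50601835-50602084, plus strand: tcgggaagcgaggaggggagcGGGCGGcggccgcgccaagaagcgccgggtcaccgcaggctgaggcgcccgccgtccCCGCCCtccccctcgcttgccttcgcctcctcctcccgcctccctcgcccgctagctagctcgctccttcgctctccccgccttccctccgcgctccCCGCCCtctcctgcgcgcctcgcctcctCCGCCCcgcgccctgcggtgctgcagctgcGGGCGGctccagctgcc
Adamtsl3, chr7:82335444-82335693, plus strand: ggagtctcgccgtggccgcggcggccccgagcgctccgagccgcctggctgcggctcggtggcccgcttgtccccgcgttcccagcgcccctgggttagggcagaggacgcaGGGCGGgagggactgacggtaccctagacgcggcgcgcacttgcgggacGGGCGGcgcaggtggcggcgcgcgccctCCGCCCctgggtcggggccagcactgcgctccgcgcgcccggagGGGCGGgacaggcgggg
Adamts1, chr16:85803114-85803363, minus strand: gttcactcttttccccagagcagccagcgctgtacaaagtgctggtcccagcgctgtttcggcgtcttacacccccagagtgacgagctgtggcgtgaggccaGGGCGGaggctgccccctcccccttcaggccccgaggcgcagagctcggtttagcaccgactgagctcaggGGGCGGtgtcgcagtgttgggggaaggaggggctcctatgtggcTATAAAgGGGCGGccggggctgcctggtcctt
Mmp13, chr9:7272264-7272513, plus strand: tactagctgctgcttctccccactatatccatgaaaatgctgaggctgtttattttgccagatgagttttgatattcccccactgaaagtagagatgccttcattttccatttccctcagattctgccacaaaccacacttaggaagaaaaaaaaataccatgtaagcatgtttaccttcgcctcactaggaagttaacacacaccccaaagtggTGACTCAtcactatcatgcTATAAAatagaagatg
Each of the 5 genes called by DESeq2 that are shown here has GC box letters and none has AP-1 letters. Of them Adamts1 also has TATAAA letters, and Timp1 and Mmp14 have CCAAT letters. Mmp13 has AP-1 and TATAAA letters and no GC box letters. These matches are descriptions of letters and not sites of binding.

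Genes that act with the metalloproteinases were compared by list. Of 11 membrane-anchored ADAM proteinases, all tested, 7 had a log2 fold change above 0 and 1 was called by DESeq2. This was Adam12, a meltrin of mesenchymal cells, at 0 to 0.469 CPM in naïve and 3.04 to 17.3 CPM in withdrawn mice, with no overlap and a log2 fold change of 5.35 ± 0.99 (SE, adjusted p = 0.0883 by edgeR and 1.80e-09 by DESeq2). Adam9, a broadly expressed sheddase, had a log2 fold change of 0.51 (95% interval -0.02 to 1.03). Of 12 activators and other inhibitors 9 were tested, 5 above 0 and 4 below. Lrp1, the receptor that clears proteinase and inhibitor complexes, had a log2 fold change of 0.68 (edgeR adjusted p = 0.678), and Plat, tissue plasminogen activator, of 0.37 (95% interval -0.30 to 1.03).

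Of 16 matrix substrates, all tested, 10 had a log2 fold change above 0 and 6 below, and 4 of the former and 1 of the latter had an unadjusted p under 0.05. Col1a1 and Col1a2, the chains of type I procollagen that Adamts2 trims and that Mmp14 cleaves as collagen, had log2 fold changes of 4.88 ± 1.13 and 4.71 ± 1.33 (SE, edgeR adjusted p = 0.157 and 0.273). Both also stand in the fibroblast list. Of the 3 tested astacin family proteinases 2 were above 0. Bmp1, the procollagen C-proteinase, had a log2 fold change of 0.66 (95% interval 0.14 to 1.19, edgeR adjusted p = 0.495) and Tll1 of 2.39 (-0.08 to 4.87).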

How the data were processed

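The deposited values are raw read counts per Ensembl gene and mouse, which the authors made by trimming with cutadapt, mapping with STAR to GRCm38 and counting with HTSeq, without normalization or pooling. Symbols, coordinates and exon lengths came from GENCODE M21 on the same build, which names 53360 of the 53465 identifiers. The members, gene lists, marker lists and tests were chosen with earlier results of these data known.

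CPM were computed on TMM-normalized library sizes, and CPM per kb by division by the merged exon length. Withdrawn mice were compared with naïve mice with edgeR 4.0.16 in R 4.3.3 (TMM, filterByExpr with a minimum count of 10 and a total of 15, quasi-likelihood test, Benjamini-Hochberg adjustment over all genes tested), and with DESeq2 1.42.0 as the alternative. The SE is the log2 fold change divided by the square root of F. In simulated data of 17093 genes with 200 changed by 3 on the log2 scale and gene dispersions as estimated here, 121 were recovered by edgeR with 3 false calls and 150 by DESeq2 with 58.

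Named with values were the 4 Timp genes, the 12 other members highest per kb, those at an unadjusted p under 0.05, those without overlap, and those called by DESeq2, and from each related list the 2 genes with the smallest p. Mmp2, Mmp9, Mmp21, Mmp27, Adamts3, Adamts13, Adamts14, Adamts19, Ogn and Dcn were named after their values were seen. Replicate numbers come from the labels, and the deviations of same-numbered mice from their group means correlated by -0.20 to 0.18. No pair of libraries agreed within sampling noise (chi-square per degree of freedom at least 26.1).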

Additional observations from a re-analysis of the deposited data

Results flagged for a closer look

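Within the groups of 5 or 6 mice, the lowest or highest mouse was set against the rest by Dixon's criterion for the 19 named members. A single mouse lay far from the others in 6 of 38 sets of values. For independent sets a rate of 1 in 20 would give 1.9. These sets are not independent, since the genes were chosen partly from these data and the same mice recur. The number is therefore not compared with chance. For Adamts2, withdrawn mouse 2 stood at 0 CPM while the others stood at 39.3 to 223 CPM. For Timp1 the same mouse stood at 0 CPM, beside 12.7 to 17.5 CPM. For Adamtsl3 it stood at 0.224 CPM (2 counts), beside 38.9 to 144 CPM, and for Mmp14 at 0.336 CPM (3 counts), beside 18.0 to 65.7 CPM. Fibroblast markers summed to 18.4 CPM in this mouse and to 233 to 1323 CPM in the other withdrawn mice, and their part in these values was not tested. Naïve mouse 5 stood at 0 CPM for Timp3, beside 21.4 to 128 CPM in the other naïve mice, and at 1.49 CPM for Timp4 (22 counts), beside 9.78 to 19.1 CPM. This mouse also had the fewest genes with a count, 15585.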

How the results depend on the processing

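The number of genes called in all, 1, was 362 with DESeq2, 137 with no low-count filter, 30 among genes with at least 10 counts in every mouse, 0 without the 3 mice with conflicting labels, and 0 to 193 with 1 mouse left out, 193 being without withdrawn mouse 2. With a replicate block on the shared numbers, which left 10 mice, 0 genes and 0 members were called, 28 of 35 members were higher and 8 had an unadjusted p under 0.05; the same 10 mice without the block also gave 0. The correlations of same-numbered mice show no pairing, so the block is given here only.

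The number of members called, 0, was 6 with DESeq2, 3 with no low-count filter (Adamts2, Adamtsl3 and Mmp14) and 0 to 4 with 1 mouse left out, the 4 being without withdrawn mouse 2. It was 0 under DESeq2 size factors, without the conflicting mice and under the adjusted p alone. The number called by DESeq2, 6, was 0 without the 3 conflicting mice and 4 to 7 with 1 mouse left out, 4 being without withdrawn mouse 1 or 4. Among the 10 members with at least 10 counts in every mouse, 7 were higher and 2 had an unadjusted p under 0.05. With 1 mouse left out, 26 to 34 members were higher and 6 to 10 had an unadjusted p under 0.05, 6 being without withdrawn mouse 4. Counting only genes at the filter level in at least 3 mice of each group, chosen after seeing the data, 21 of 28 members were higher and 6 had an unadjusted p under 0.05.

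Of 331 values of single genes under other settings, 309 kept direction and side of the threshold, 13 passed it and 9 changed sign. The sign changed for Mmp16 (-0.26 without the conflicting mice and -0.067 to 0.16 with 1 mouse left out), Timp3 (-0.54, and -0.31 to 0.74) and Timp4 (-0.048 to 0.40 with 1 mouse left out). The cause of these changes was not tested. Counts near the floor of 3 and the spread among mice limit what could be seen for low genes.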
